A study of Mus musculus with 6 samples.

Results

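The levels of 8 housekeeping genes that serve as internal standards in RT-qPCR were read from the brain transcriptomes of Bahd1-deficient mice, namely Hprt, Ywhaz, Actb, Tbp, Ppia, Gusb, Polr2a and Tfrc. They were taken by gene name from the deposited count table, where each of the 8 had a single row among 53801 genes. The list combines Ywhaz and Hprt, which the study's RT-qPCR used as normalizer and as control, with other genes in common use for this purpose, and the rule uses no measured value. RNA-seq had been performed on one frozen hemisphere from each of 3 Bahd1-WT (Bahd1+/+) and 3 Bahd1-KO (Bahd1-/-) adult mice of the C57BL/6 strain, about 70 weeks old, and the study's methods describe its mice as males. The knockout is constitutive, so that all cells of the Bahd1-KO mice lack the gene from conception. The mice were the offspring of heterozygous parents, and since the null mutation kills part of the pups around birth, the adult Bahd1-KO mice are survivors. BAHD1 is a chromatin protein that takes part in gene silencing. The comparison asked whether genes taken as constant kept their level between the genotypes and between the 6 mice.

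In RT-qPCR, the amount of input RNA and the yield of cDNA differ from tube to tube, and the signal of a target is divided by that of a reference gene measured in the same cDNA. The division is exact only as far as the reference has the same level in every sample. Reference genes therefore come from processes that every cell runs, such as transcription, protein folding, the cytoskeleton, nucleotide salvage and iron uptake, and several of them are commonly measured and averaged. RNA-seq reads these genes in the same libraries as all other transcripts, as a share of the total, and needs no reference gene.

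The study's primers for Ywhaz are shown because they define which piece of the transcript the RT-qPCR read, and all bases are in capitals because every base matched the reference transcript. No sequence was given for the commercial Hprt assay.
Ywhaz forward primer: TAAATGGTCTGTCACCGTCT
Ywhaz reverse primer: GGAAATACTCGGTAGGGTGT
Ywhaz lies on the minus strand, and on that strand of the GRCm38 build the forward primer matched chr15:36771030-36771049 and the reverse complement of the reverse primer matched chr15:36770930-36770949. The product spans 120 bases within exon 7 of 7, in the 3′ UTR of the transcript ENSMUST00000022894.13, and ends 160 bases before the end of that 3288-base transcript. Of 9 annotated Ywhaz transcripts, 1 holds both primer sites, and no other gene's transcripts held either primer without a mismatch. The RNA-seq counts, in contrast, sum the reads on all exons of the gene.

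Counts summed to between 42297150 and 93557948 reads per library. Bahd1, the targeted gene, was read 844 to 1383 times per Bahd1-WT library and 0, 14 and 1 times in Bahd1-KO replicates 1, 2 and 3. The markers of the tissue were abundant in every library, with 7213 to 10074 CPM (read counts scaled to a common library size after TMM normalization) summed over 6 neuronal markers and 3224 to 5606 CPM over 5 astrocyte markers. Astrocyte markers summed to 5152 to 5606 CPM in Bahd1-WT and to 3224 to 4858 CPM in Bahd1-KO mice, a sum carried by Slc1a2, while 2 of the 5 (Gfap and Aldh1l1) had a higher mean in Bahd1-KO mice. The 5 oligodendrocyte markers summed to 3620 to 3999 and 3940 to 6798 CPM. Bahd1-KO replicate 2 stood apart, with 93.1 CPM over 6 red cell markers against 11.4 to 31.0 CPM in the other 5 mice, and 1089 CPM over 6 choroid plexus markers against 292 to 623 CPM. In this mouse 1018 of the 1089 CPM came from Ttr (transthyretin), and 4 of the 6 choroid plexus markers had a lower mean in Bahd1-KO mice. Pituitary markers (6 hormone genes) summed to 42.5 CPM in Bahd1-KO replicate 3 and 19.0 CPM in Bahd1-WT replicate 1, against 0.184 to 3.93 CPM in the other 4 mice. Markers of lung epithelium (6 genes), which do not belong to brain, summed to 110, 26.4 and 2.35 CPM in Bahd1-WT replicates 1, 2 and 3 and to at most 1.42 CPM in Bahd1-KO mice, and among them Sftpd was at 0 in all 3 Bahd1-KO mice. The part of these differences in the levels of the reference genes was not tested.

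No reference gene of the 8 passed the test between genotypes, but the point estimates were spread from Tfrc, lower in Bahd1-KO mice, to Actb, higher in them. The log2 fold changes (Bahd1-KO over Bahd1-WT) ran from -0.76 for Tfrc through -0.50 for Tbp, -0.44 for Hprt, -0.10 for Ywhaz, 0.16 for Polr2a, 0.30 for Gusb and 0.33 for Ppia to 0.73 for Actb. With 23975 genes tested by edgeR's quasi-likelihood test and Benjamini-Hochberg adjustment over all of them, 0 of 8 had an adjusted p-value under 0.05, against 0.00834% of all genes. At an unadjusted p-value under 0.05, 3 of 8 stood out (Actb, Tbp and Tfrc), against 31.8% of all genes, and 1 of 8 by DESeq2 with an adjusted p-value under 0.05 (Actb), against 21.3%. In 4 of 8 the CPM of the 3 Bahd1-KO mice did not overlap those of the 3 Bahd1-WT mice, which was so for 39.8% of all genes tested. By direction, 2 of these 4 were higher in Bahd1-KO mice (Actb and Gusb), against 20.6%, and 2 were lower (Tfrc and Tbp), against 19.3%. Without Bahd1-KO replicate 1, edgeR gave 4 of 8 (Hprt, Actb, Tbp and Tfrc) an adjusted p-value under 0.05, against 30.0% of all genes, and with total counts as library sizes or with no filter beyond 1 count it gave Actb alone one, against 9.40% and 11.0%. The members' shares are thus near the background, and 3 mice per genotype leave a standard error of 0.15 to 0.27 on each log2 fold change. In bulk tissue, fewer cells of a type and less RNA per cell cannot be told apart.

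**Figure D1:**
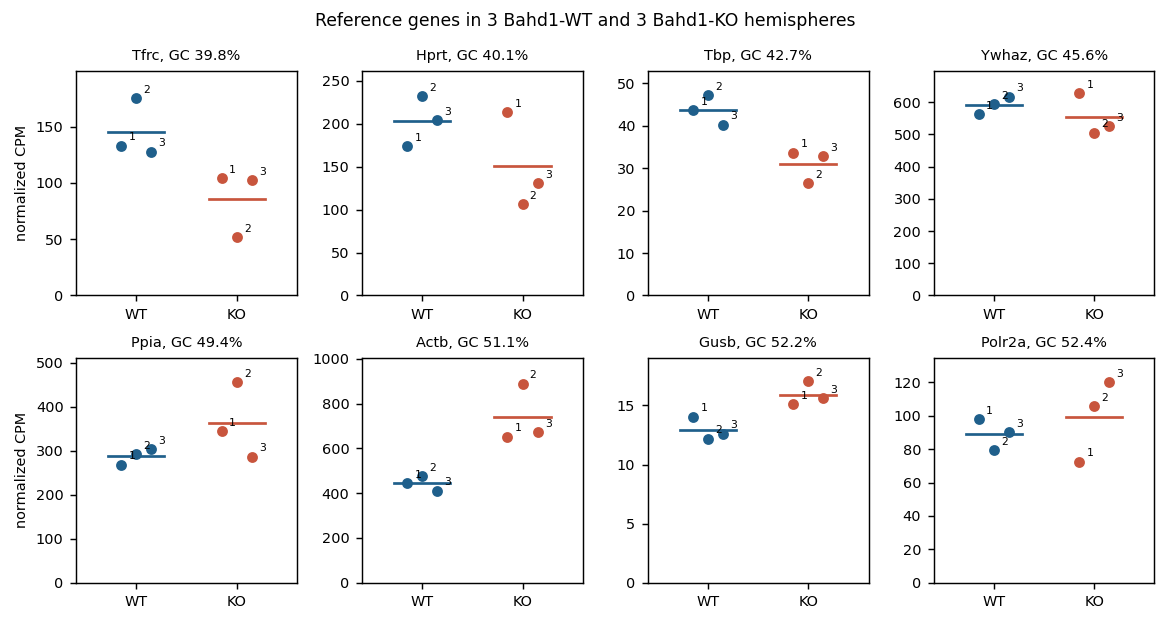
Normalized CPM (vertical axes, from 0, one scale per gene) of the 8 reference genes in each Bahd1-WT and Bahd1-KO mouse, with replicate numbers beside the points and the genotype mean as a line; panels run from the lowest to the highest GC content. Tfrc and Tbp lie lower and Actb and Gusb lie higher in all 3 Bahd1-KO mice, while the genotypes overlap for Hprt, Ywhaz, Ppia and Polr2a.

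The sign of the fold changes, though not their order, went with the base composition of the genes. The 4 members with a GC content of 39.8 to 45.6% in their longest transcript (Tfrc, Hprt, Tbp and Ywhaz) all had a lower mean in Bahd1-KO mice, and the 4 with 49.4 to 52.4% (Ppia, Actb, Gusb and Polr2a) all had a higher one. Within the second group the 2 genes with the highest GC content, Gusb and Polr2a, were closer to 0 than Actb. When the dependence of counts on GC content and transcript length was fitted in each library and used as an offset, the median size of the log2 fold change over the 8 members was 0.14, against 0.38 without it. With the offset, 2 of 8 members did not overlap between genotypes (Ywhaz and Actb), against 26.4% of all genes, and 1 of 8 (Actb) had an unadjusted p-value under 0.05, against 21.4%. After adjustment 0 of 8 were under 0.05, against 0.0167%. In a separate fit, with the replicate number as a block and no offset, 0 of 8 were under 0.05, against 0.0292%. Under the offset without the block, the estimate of 4 members took the other sign, with 0.15 for Ywhaz, 0.042 for Tbp, -0.022 for Gusb and -0.13 for Polr2a. The offset removes what varies with GC content and length in a library, whatever its source, and the source was not tested.

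**Figure D2:**
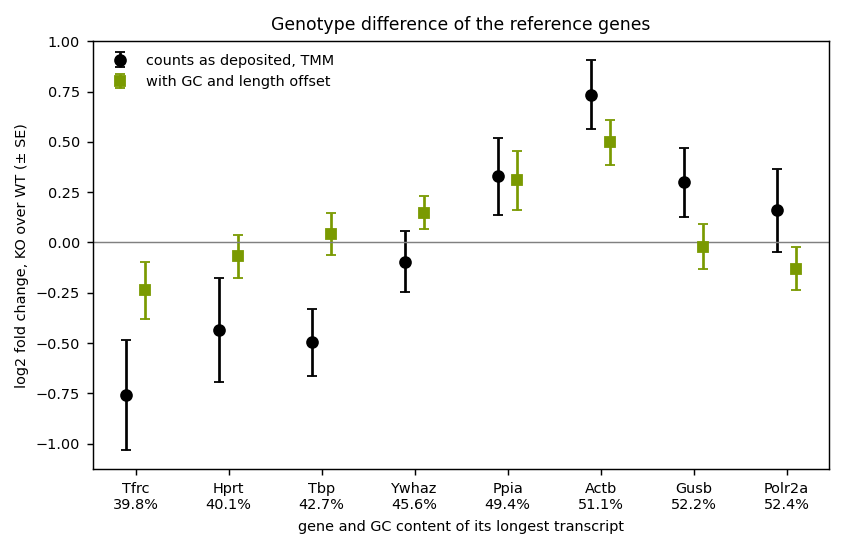
Log2 fold change of Bahd1-KO over Bahd1-WT (vertical axis, error bars are standard errors derived from edgeR's F statistic, 3 mice per genotype) for the 8 genes in order of GC content (horizontal axis), from the TMM-normalized counts (circles) and with the GC and length offset (squares). The circles go from -0.76 at 39.8% GC to 0.73 at 51.1% GC and back to 0.30 and 0.16 at 52.2% and 52.4% GC, and with the offset only Actb (0.50) and Ppia (0.31) are more than 0.25 from 0.

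Ywhaz, the normalizer of the RT-qPCR, encodes 14-3-3 zeta, an adaptor that binds phosphorylated proteins, and was among the most even members. It lies at chr15:36770770-36796929 (gene ENSMUSG00000022285, minus strand) and had 563, 593 and 618 CPM in Bahd1-WT replicates 1, 2 and 3 and 629, 505 and 526 CPM in Bahd1-KO replicates 1, 2 and 3. Bahd1-KO replicate 1 was thus the highest of all mice and the other 2 Bahd1-KO mice the lowest, and the genotypes overlapped. The means were 591 ± 27.4 and 554 ± 65.9 CPM (SD, n = 3 each), with a log2 fold change of -0.10 ± 0.15 (SE; edgeR adjusted p = 0.681). With the GC and length offset the estimate was 0.15 ± 0.08 (edgeR adjusted p = 0.335), and the genotypes did not overlap. A pair of pseudogenes with at least 95% identity to its transcript took 11 to 26 counts per library, at most 0.0573% of the counts of Ywhaz.

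Of the 6 other 14-3-3 genes, 2 had a higher and 4 a lower mean in Bahd1-KO mice, with a median log2 fold change of -0.24 against -0.06 over all genes tested, and 0 had an adjusted p-value under 0.05 (1 an unadjusted one). Among those with a mean of at least 1 CPM, the values ran from -0.38 for Ywhaq (14-3-3 theta) to 0.09 for Ywhag (14-3-3 gamma), and the offset gave -0.16 and -0.24 for them. Sfn (14-3-3 sigma, an epithelial protein), with 0.243 CPM in Bahd1-WT and 1.13 CPM in Bahd1-KO mice, was the gene with the unadjusted p-value under 0.05. Of all genes tested, 46.6% had a higher mean in Bahd1-KO mice, and at an unadjusted p-value under 0.05 19.9% were higher and 12.0% lower, which is the background of this and the following lists.

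Hprt encodes hypoxanthine-guanine phosphoribosyltransferase, which salvages purine bases, and was the control gene of the study. It lies on chromosome X (chrX:52988137-53021659, ENSMUSG00000025630, plus strand). Its levels were 174, 232 and 204 CPM in Bahd1-WT replicates 1, 2 and 3 and 214, 106 and 131 CPM in Bahd1-KO replicates 1, 2 and 3. Bahd1-KO replicate 1 lay among the Bahd1-WT mice, and the other 2 Bahd1-KO mice lay below all of them. The means were 203 ± 29.0 and 150 ± 56.3 CPM (SD, n = 3 each; edgeR log2 fold change -0.44 ± 0.26, adjusted p = 0.264). Without Bahd1-KO replicate 1 the log2 fold change was -0.75 and the adjusted p-value of edgeR 0.0194, while without Bahd1-KO replicate 2 they were -0.25 and 0.490. With the offset the estimate was -0.07 ± 0.11 (edgeR adjusted p = 0.759).

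Of 15 genes of purine salvage and supply other than Hprt, 13 were tested, 7 with a higher and 6 with a lower mean in Bahd1-KO mice and a median log2 fold change of 0.09. At an unadjusted p-value under 0.05, 4 were higher and 0 were lower (19.9% and 12.0% of all genes), and 0 had an adjusted one. Aprt, which salvages adenine and is the nearest counterpart of Hprt, had the highest value of 2.30 ± 0.47 (adjusted p = 0.0634, 58.9% GC), from 2.13 ± 0.792 to 10.5 ± 6.65 CPM. Gda, the guanine deaminase that removes the substrate of HPRT, had the lowest with -0.52 ± 0.27 (42.7% GC). The offset gave 0.85 for Aprt and -0.13 for Gda.

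Actb, cytoplasmic beta-actin, had the highest estimate and the smallest p-value of the 8 members. It lies at chr5:142903115-142906754 (ENSMUSG00000029580, minus strand) and had 446, 475 and 411 CPM in Bahd1-WT replicates 1, 2 and 3 and 653, 889 and 674 CPM in Bahd1-KO replicates 1, 2 and 3. All 3 Bahd1-KO mice were above all 3 Bahd1-WT mice, and Bahd1-KO replicate 2 was the highest. The means of 444 ± 32.3 and 739 ± 131 CPM (SD, n = 3 each) gave a log2 fold change of 0.73 ± 0.17, or 1.66-fold (edgeR adjusted p = 0.0634). DESeq2 gave 0.76 with an adjusted p-value of 0.00659. With the GC and length offset it was 0.50 ± 0.11, and the genotypes did not overlap there either (edgeR adjusted p = 0.0871).

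Among 15 actins and actin-binding genes other than Actb, 10 had a higher and 5 a lower mean in Bahd1-KO mice, with a median log2 fold change of 0.64, which was 0.09 with the offset. At an unadjusted p-value under 0.05, 8 were higher and 1 was lower (19.9% and 12.0% of all genes), and 0 had an adjusted one. Actg1, the gamma-actin that forms the same filaments, had 24.1 ± 3.61 and 54.8 ± 14.1 CPM, a log2 fold change of 1.18 ± 0.23 (adjusted p = 0.0634), and 0.77 with the offset. Among those with a mean of at least 1 CPM, Acta1, skeletal muscle actin, had the highest value of 2.45 at 0.556 and 3.05 CPM, and Pfn2, the neuronal profilin that binds actin monomers, the lowest of -0.26, and the offset gave 1.22 and -0.55 for them. The gene that was lower at an unadjusted p-value under 0.05 was Actc1, cardiac actin, at 0.217 and 0.041 CPM. It had only 40, 9 and 5 counts in Bahd1-WT and 1, 3 and 4 in Bahd1-KO replicates 1, 2 and 3, and its CPM overlapped between genotypes. The actin genes resemble each other in coding sequence, and how reads that fit several of them were counted was not examined here.

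Ppia encodes cyclophilin A, a prolyl isomerase of the cytosol that assists protein folding. The gene at chr11:6415443-6419817 (ENSMUSG00000071866, plus strand) had 269, 292 and 304 CPM in Bahd1-WT replicates 1, 2 and 3 and 345, 455 and 286 CPM in Bahd1-KO replicates 1, 2 and 3. Bahd1-KO replicate 3 lay among the Bahd1-WT mice and the genotypes overlapped. Means were 288 ± 17.9 and 362 ± 85.8 CPM (SD, n = 3 each), with a log2 fold change of 0.33 ± 0.19 (edgeR adjusted p = 0.255). The offset left it almost where it was, at 0.31 ± 0.15 (edgeR adjusted p = 0.259). That offset used the longest transcript with 49.4% GC, while the principal coding transcript of 1170 bases has 55.4%. Ppia is also the member with the most copies, since 19 pseudogenes had at least 95% identity to it over at least 100 bases. The 16 of these in the count table took 16 to 64 counts per library, or 0.0886 to 0.203% of the counts of Ppia, and reads that fit a copy and the gene alike may have been lost from both.

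Among the other cyclophilins the estimates were of both signs. Of 13 genes, 5 had a higher and 8 a lower mean in Bahd1-KO mice, with a median log2 fold change of -0.11. At an unadjusted p-value under 0.05, 2 were higher and 5 were lower (19.9% and 12.0% of all genes), and 0 had an adjusted one. The values ran from -0.72 for Ppwd1, a cyclophilin of the spliceosome (37.2% GC), to 0.70 for Ppif, the mitochondrial cyclophilin D (52.1% GC), and were -0.12 and 0.40 with the offset.

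Tbp and Polr2a belong to the transcription machinery, and their estimates had opposite signs. Tbp is the TATA-binding protein that nucleates the initiation factor TFIID (chr17:15499888-15528379, ENSMUSG00000014767, plus strand). It had 43.6, 47.1 and 40.3 CPM in Bahd1-WT replicates 1, 2 and 3 and 33.6, 26.4 and 32.9 CPM in Bahd1-KO replicates 1, 2 and 3, so that the genotypes did not overlap and Bahd1-KO replicate 2 was the lowest. Means were 43.7 ± 3.42 and 30.9 ± 3.97 CPM (SD, n = 3 each), a log2 fold change of -0.50 ± 0.17 (edgeR adjusted p = 0.0947). The offset took the estimate to 0.042 ± 0.10 (edgeR adjusted p = 0.856). The annotated Tbp locus overlaps Pdcd2 on the opposite strand, and reads in the overlap are told apart only by strand, which the study's methods state was used in counting.

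Polr2a encodes RPB1, the catalytic subunit of RNA polymerase II (chr11:69733997-69758637, ENSMUSG00000005198, minus strand). Its CPM were 97.8, 79.2 and 90.3 in Bahd1-WT replicates 1, 2 and 3 and 72.6, 106 and 120 in Bahd1-KO replicates 1, 2 and 3. Bahd1-KO mice held both the lowest and the 2 highest values. Means were 89.1 ± 9.35 and 99.5 ± 24.3 CPM (SD, n = 3 each), with a log2 fold change of 0.16 ± 0.21 (edgeR adjusted p = 0.608), and the offset gave -0.13 ± 0.11. The estimate ran from 0.019 without Bahd1-KO replicate 3 to 0.37 without Bahd1-KO replicate 1.

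Partners of these proteins showed both signs too. Of 14 tested genes of TFIID and TBP relatives, 6 had a higher and 8 a lower mean in Bahd1-KO mice. Their median log2 fold change was -0.13 and turned to 0.06 with the offset. The values ran from -0.57 for Taf5 to 1.03 for Taf6, both subunits of TFIID, and were -0.52 and 0.25 with the offset. Of 11 other RNA polymerase II subunits, 7 were higher and 4 lower, 6 of the former with an unadjusted p-value under 0.05 (19.9% of all genes were higher at that p), and the median was 0.84, or 0.39 with the offset. The highest value was that of Polr2f, a small subunit shared by all 3 nuclear polymerases, with 2.60 ± 0.63 (adjusted p = 0.0634) at 2.12 ± 1.12 and 12.9 ± 10.4 CPM. The lowest was that of Polr2k, another shared small subunit, with -0.47 ± 0.24. For these the offset gave 2.07 and -0.15. No gene of either list had an adjusted p-value under 0.05.

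Gusb encodes beta-glucuronidase, a hydrolase of the lysosome (chr5:129989011-130003049, ENSMUSG00000025534, minus strand), and had the lowest CPM of the 8 genes. Bahd1-WT replicates 1, 2 and 3 had 14.03, 12.2 and 12.6 CPM, and Bahd1-KO replicates 1, 2 and 3 had 15.1, 17.0 and 15.6 CPM. All Bahd1-KO mice lay above all Bahd1-WT mice by a narrow margin. Means were 12.9 ± 0.965 and 15.9 ± 1.02 CPM (SD, n = 3 each), a log2 fold change of 0.30 ± 0.17 (edgeR adjusted p = 0.256). The offset took it to -0.022 ± 0.11. Of 15 other lysosomal hydrolases, 11 had a higher and 4 a lower mean in Bahd1-KO mice, 9 of the former with an unadjusted p-value under 0.05, against 19.9% of all genes, and none with an adjusted one. Their median log2 fold change was 0.55, and 0.05 with the offset. Gaa, the acid alpha-glucosidase that degrades glycogen, had the highest value of 2.51 ± 0.54 (59.5% GC), which was 1.12 with the offset.

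Tfrc encodes the transferrin receptor, through which cells take up iron and which is abundant on developing red cells and brain endothelium. The gene at chr16:32608920-32632794 (ENSMUSG00000022797, plus strand) had 133, 175 and 128 CPM in Bahd1-WT replicates 1, 2 and 3 and 104, 51.6 and 102 CPM in Bahd1-KO replicates 1, 2 and 3. All 3 Bahd1-KO mice were below all 3 Bahd1-WT mice, and Bahd1-KO replicate 2 was below all others by a wide margin. Means were 145 ± 26.1 and 86.0 ± 29.8 CPM (SD, n = 3 each), a log2 fold change of -0.76 ± 0.27 (edgeR adjusted p = 0.107), and the offset gave -0.24 ± 0.14 (edgeR adjusted p = 0.364). The 5 endothelial markers summed to 186 to 197 CPM in Bahd1-WT and 180 to 210 CPM in Bahd1-KO mice. The largest part of this sum came from Flt1 (92.1 and 90.3 CPM on average), while Slco1a4 was lower in all 3 Bahd1-KO mice (means of 59.7 and 43.9 CPM) and Cldn5 higher in all 3 (2.45 and 14.5 CPM). Red cell markers were highest in Bahd1-KO replicate 2, where Tfrc was lowest. The part of either cell type in the level of Tfrc was not tested.

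Of 12 other genes of iron uptake and storage, 7 had a higher and 5 a lower mean in Bahd1-KO mice, with a median log2 fold change of 0.15, which turned to -0.11 with the offset. At an unadjusted p-value under 0.05, 2 were higher and 4 were lower (19.9% and 12.0% of all genes), and 0 had an adjusted one. The 2 highest were Ftl1, the ferritin light chain that stores iron, with 2.38 ± 0.49 (58.1% GC), and Trf, the transferrin that TFRC binds, with 1.72 ± 0.35 (both with an adjusted p of 0.0634 by edgeR), and the offset gave 1.08 and 1.33. Trf had 6.40 ± 2.14 CPM in Bahd1-WT and 21.1 ± 8.38 CPM in Bahd1-KO mice. At the low end were Heph, the ferroxidase hephaestin, with -0.66 ± 0.22, and Ireb2, the iron-responsive RNA-binding protein that acts on the Tfrc transcript, with -0.65 ± 0.24 (39.0% GC), and the offset gave -0.42 and -0.088 for them.

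Among 18 further genes in common use as references, the median log2 fold change was 0.54, with 14 having a higher and 4 a lower mean in Bahd1-KO mice, where 46.6% of all genes tested had a higher one. Of these, 10 had an unadjusted p-value under 0.05, all higher, against 19.9% of all genes, and 0 an adjusted one. The highest was Rplp0, a protein of the large ribosomal subunit, with 1.98 ± 0.44 and 20.0 ± 4.43 against 78.8 ± 53.2 CPM, and the lowest was Top1, DNA topoisomerase I, with -0.42 ± 0.21, and the offset gave 1.39 and -0.011. Rplp0 belongs to a family rich in pseudogenes, and its copies were not examined here. With the offset the median of the 18 genes was 0.14. Over the 9 lists around the members, 117 of 120 genes were tested, of which 44 were higher and 12 lower at an unadjusted p-value under 0.05, against 19.9% and 12.0% of all genes. No gene of the lists had an adjusted p-value under 0.05 by edgeR, while 38 had one by DESeq2, against 21.3% of all genes.

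Evenness over all 6 mice, which a reference gene needs beyond an equal mean, was measured as the SD of log2 CPM. Ywhaz had the smallest SD of the 8 genes with 0.127, followed by Gusb with 0.186, Polr2a with 0.268, Ppia with 0.276, Tbp with 0.309, Actb with 0.430, Hprt with 0.443 and Tfrc with 0.597. The ratio of the highest to the lowest mouse was 1.24 for Ywhaz and 3.40 for Tfrc. Among the 14706 genes with a mean of at least 1 CPM, the median SD was 0.340, and 5 of 8 members lay below it. Ywhaz stood at the 7.40th percentile of these genes, Hprt at the 67.3rd and Tfrc at the 81.0th. Gusb thus combined a small SD with non-overlapping genotypes, as its SD within genotypes was 0.106 in Bahd1-WT and 0.0909 in Bahd1-KO mice.

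Bahd1-KO replicate 2 had the lowest level of Ywhaz, Tbp, Hprt and Tfrc and the highest of Gusb, Ppia and Actb. The SD over the Bahd1-KO mice exceeded that over the Bahd1-WT mice for every member except Gusb (0.0909 against 0.106), and for Hprt the values were 0.518 and 0.208. Without Bahd1-KO replicate 2, the SD was 0.134 for Ppia and 0.316 for Tfrc, and their log2 fold changes were 0.13 and -0.50.

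After the GC and length offset, SDs were 0.0705 for Gusb, 0.0953 for Ywhaz, 0.0981 for Tbp, 0.131 for Hprt, 0.143 for Polr2a, 0.238 for Tfrc, 0.258 for Ppia and 0.303 for Actb. The order changed, and Hprt moved from the seventh to the fourth place and Actb to the last. The median over expressed genes was 0.187 there, and again 5 of 8 members were below it. By the geNorm M value, the mean SD of a gene's log2 ratio to the other 7 members, Ywhaz was the most stable (0.377) and Tfrc the least (0.646), and with the offset Gusb, Tbp and Ywhaz each had 0.202, while Actb was the least stable with 0.327.

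**Figure D3:**
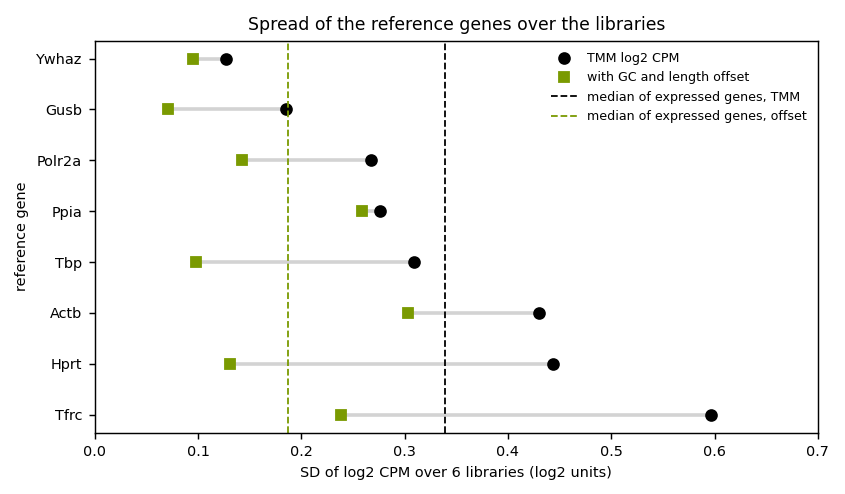
SD of log2 CPM over the 6 libraries (horizontal axis, log2 units) for each of the 8 genes, from TMM-normalized values (circles) and with the GC and length offset (squares), with dashed lines at the medians of the 14706 expressed genes (0.340 and 0.187). Ywhaz has the smallest SD without the offset (0.127) and Tfrc the largest (0.597), and Tfrc and Hprt move the farthest with the offset.

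Levels between genes were compared per kilobase of exon. In Bahd1-WT mice the order of the mean levels in CPM per kb was Actb 166, Hprt 158, Ywhaz 144, Ppia 82.1, Tfrc 23.5, Polr2a 12.6, Tbp 3.22 and Gusb 2.85. Hprt overlapped with Actb and with Ywhaz over the 3 mice, and Tbp with Gusb, while the other neighbours did not overlap. In Bahd1-KO mice the order was Actb 276, Ywhaz 134, Hprt 117, Ppia 103, Polr2a 14.1, Tfrc 13.9, Gusb 3.50 and Tbp 2.28. There Ywhaz overlapped with Hprt, Hprt with Ppia and Polr2a with Tfrc, while Actb lay above Ywhaz and Ppia above Polr2a in all 3 mice, and Gusb lay above Tbp in all 3 mice. The exons of Tbp are counted over 13576 bases because of a long annotated transcript, which lowers its value per kilobase. All annotated exons of Ppia cover 3508 bases and its principal coding transcript 1170, while both lengths are 1289 for Hprt. Actb has 2679 and 1920 bases, and Ywhaz 4118 and 3288. The order among these genes thus depends on which length is used.

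A ratio of 2 reference genes within a library does not depend on how libraries are scaled. Of the 28 pairs, 14 had log2 ratios that did not overlap between the genotypes, against 49.3% of all pairs of expressed genes. An exact two-sided permutation test of 3 against 3 mice cannot go below p = 0.1, so that none of the pairs could reach 0.05. The largest differences in mean log2 ratio (Bahd1-KO minus Bahd1-WT) were 1.54 for Actb over Tfrc, 1.22 for Actb over Tbp and -1.21 for Hprt over Actb, each with the smallest exact p-value of 0.1. For Actb over Tfrc, the log2 ratios were 1.75, 1.44 and 1.68 in Bahd1-WT replicates 1, 2 and 3 and 2.65, 4.11 and 2.72 in Bahd1-KO replicates 1, 2 and 3. The pair differed most in Bahd1-KO replicate 2, where Actb was highest and Tfrc lowest.

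The 2 genes of the study's own assay gave a smaller difference. Hprt over Ywhaz had log2 ratios of -1.70, -1.36 and -1.60 in Bahd1-WT replicates 1, 2 and 3 and -1.56, -2.25 and -2.01 in Bahd1-KO replicates 1, 2 and 3. Bahd1-KO replicate 1 lay within the Bahd1-WT range, and the mean difference was -0.39 (exact permutation p = 0.3), between -0.58 and -0.23 when single mice were left out and -0.22 with the GC and length offset. Ywhaz over Actb, in comparison, had 0.34, 0.32 and 0.59 in Bahd1-WT replicates 1, 2 and 3 against -0.06, -0.81 and -0.36 in Bahd1-KO replicates 1, 2 and 3. No Bahd1-KO mouse reached a Bahd1-WT mouse, with a mean difference of -0.82 (exact permutation p = 0.1).

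Ppia over Gusb had the smallest SD over the 6 mice (0.210) with a mean difference of 0.0054, which ran from -0.12 without Bahd1-KO replicate 2 to 0.15 without Bahd1-KO replicate 3. The next in SD were Gusb over Polr2a (0.237) and Ywhaz over Tbp (0.256), and the latter differed by 0.40 between genotypes with no overlap. Hprt over Tbp differed by 0.012 between genotypes with an SD of 0.272, and by -0.21 without Bahd1-KO replicate 1 and 0.13 without Bahd1-KO replicate 3. Hprt and Tbp have a GC content of 40.1% and 42.7%, and Ppia and Gusb of 49.4% and 52.2%. After the GC and length offset, 7 of the 28 pairs did not overlap, against 33.5% of all pairs of expressed genes under the same offset. Actb was in 6 of them, and the seventh was Hprt over Ppia.

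**Figure D4:**
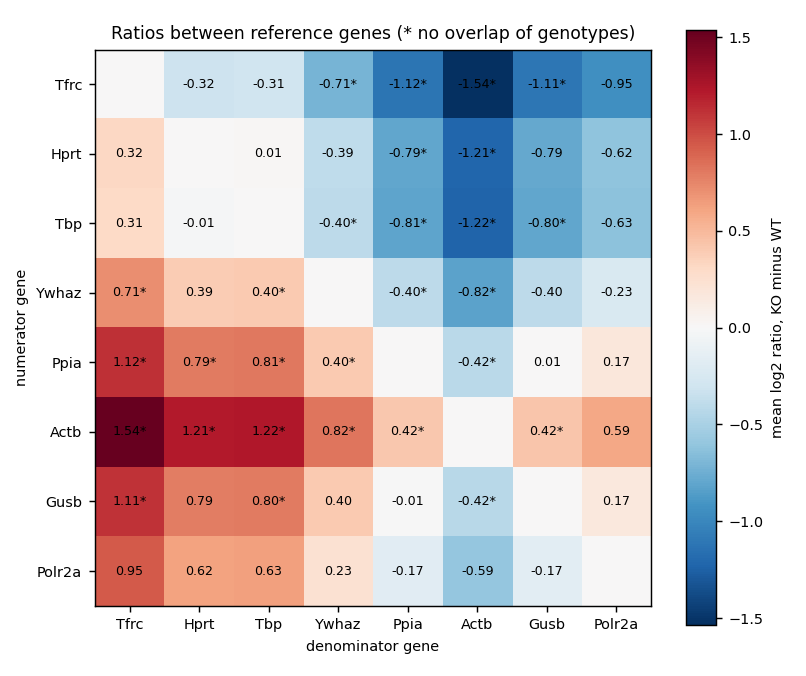
Difference in the mean log2 ratio of each pair of reference genes (row over column), Bahd1-KO minus Bahd1-WT, as colour and number; genes run from low to high GC content, and an asterisk marks pairs whose 3 Bahd1-KO and 3 Bahd1-WT ratios do not overlap. The largest values join Actb with Tfrc (1.54), Tbp (1.22) and Hprt (1.21), and the smallest join Ppia with Gusb and Hprt with Tbp.

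The choice of reference shifted the level that a target gene would show. The study measured Btla, Ccl9, Ifi204, Mndal, Lyz1 and Sftpa1, all genes of immunity or host defence, by RT-qPCR. It took them as representatives of the genes that its RNA-seq of these same mice had called lower. A lower level in these counts was therefore largely set in advance. From the counts, the mean log2 ratio of target to Ywhaz in Bahd1-KO minus Bahd1-WT mice was -1.95 for Btla, -1.50 for Ifi204, -1.30 for Mndal and -1.05 for Ccl9, with no overlap of genotypes. Lyz1 and Sftpa1 had at most 2 counts in any Bahd1-KO mouse, and with those set to the floor of 3 counts per library they were at least 14.3-fold and 52.4-fold lower relative to Ywhaz. Without Bahd1-WT replicate 1, the library with the highest lung epithelium markers, these bounds were 6.70-fold and 18.4-fold, and without Bahd1-WT replicate 3 they were 32.4-fold and 189-fold. These 2 genes ranged from 11 to 293 and from 16 to 1908 counts among the Bahd1-WT mice, and Sftpa1 is one of the lung epithelium markers.

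Exchanging Ywhaz for another reference moves all targets by the same amount, because the shift is the genotype difference of the ratio of the 2 references. The shift in the log2 difference was 0.71 with Tfrc, 0.40 with Tbp, 0.39 with Hprt, -0.23 with Polr2a, -0.40 with Gusb, -0.40 with Ppia and -0.82 with Actb. Without Bahd1-KO replicate 2 the shift was 0.44 with Tfrc, 0.23 with Hprt and -0.16 with Ppia, and with Polr2a it was -0.11 there, -0.54 without Bahd1-KO replicate 1, -0.15 without Bahd1-WT replicate 2 and -0.050 without Bahd1-KO replicate 3. Between the extremes, Tfrc and Actb, the values spanned 1.54 log2 units, or 2.90-fold, which is the Actb over Tfrc difference given above. Ccl9 thus read -0.34 over Tfrc, -0.66 over Hprt and -1.88 over Actb, and Btla read -1.23, -1.56 and -2.77. Dividing by the mean of all 8 genes on the log2 scale instead of by Ywhaz changed the values by -0.045, and by -0.11 to 0.0026 when single mice were left out.

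The sign of the 4 quantified targets, largely set by their selection, was negative with each of the 8 references, but their separation was not kept with each. Ccl9 overlapped between genotypes when divided by Tbp, Polr2a or Tfrc, and Ifi204 and Mndal when divided by Tfrc. For Ccl9 over Tfrc, the log2 ratios were -5.35, -5.79 and -5.86 in Bahd1-WT replicates 1, 2 and 3 and -5.74, -5.75 and -6.53 in Bahd1-KO replicates 1, 2 and 3. Over Ywhaz the same gene had -7.43, -7.55 and -8.14 against -8.33, -9.05 and -8.90. Ccl9, a chemokine, was read in 161 to 298 counts in Bahd1-WT and 64 to 91 counts in Bahd1-KO mice.

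**Figure D5:**
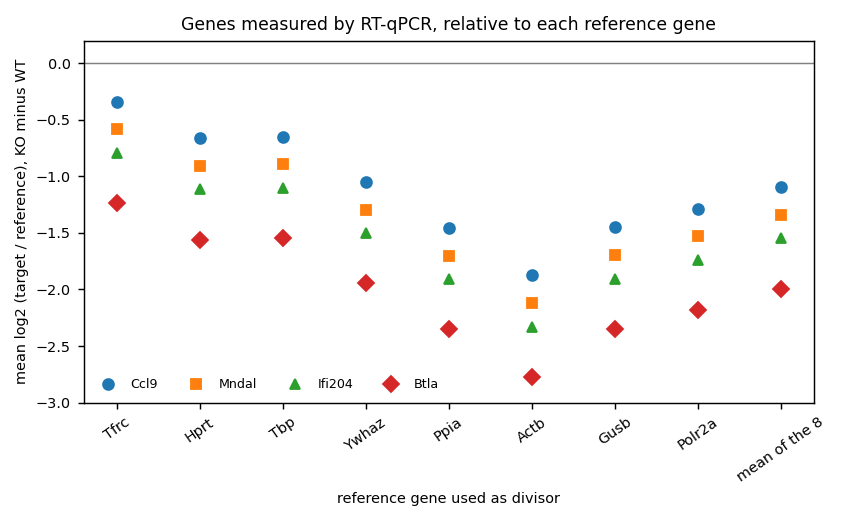
Mean log2 ratio of 4 target genes to each reference gene and to the mean of the 8 (horizontal axis), Bahd1-KO minus Bahd1-WT (vertical axis, log2 units), one symbol per target. All values lie below 0, and each target runs from its least negative value over Tfrc to its most negative over Actb, 1.54 log2 units apart.

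The genes whose levels followed a member most closely over the 6 mice were found by the root mean square difference of log2 CPM, each gene centred on its own mean, over 6 libraries and genes of at least 1 CPM. For Ywhaz these were Sh3gl3 (0.00874 log2 units), Cdc123 (0.0184) and Sqle (0.0223), and for Hprt they were Med7 (0.0327), Ppid (0.0362) and Vdac3 (0.0386). Sqle is the squalene epoxidase of cholesterol synthesis, Med7 a subunit of the Mediator complex, Ppid a cyclophilin and Vdac3 a channel of the outer mitochondrial membrane. Actb was followed by Camk1g (0.0593), Pcbd2 and Dolk, and Tfrc by Lpl (0.0683), AC166323.1 and 9330121K16Rik, at larger distances. The nearest genes of the other members were Ccdc14, Gpr139 and Zfp398 for Tbp, Ost4, Syngr3 and Sfrp2 for Ppia, Agtrap, Orai2 and Arv1 for Gusb, and Zfp609, Igf2r and Kdm3b for Polr2a, at 0.0308 to 0.0537.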

How the data were processed

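The authors aligned reads to GRCm38 and deposited raw read counts per gene, as whole numbers in a single column per mouse with technical replicates merged. Per the labels, cutadapt 1.11, STAR 2.5.0a and featureCounts 1.4.6-p3 were used; the supplementary methods also name Tophat2. The read layout is described as single-end in one place and paired-end in another. The table held 0 columns of other samples.

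Groups and replicate numbers came from the labels. Genes with a summed count of at least 10 were tested (23975) in R 4.3.3 with edgeR 4.0.16 (TMM, quasi-likelihood, genotype only, Benjamini-Hochberg) and called at an adjusted p-value under 0.05; DESeq2 1.42.0 (Wald) was an alternative. The standard error of a log2 fold change was derived as its size divided by the square root of edgeR's quasi-likelihood F statistic. Log2 CPM used a prior count of 2 and ratios a pseudocount of 0.5. The GC and length offset was a spline (5 and 3 degrees of freedom) fitted per library to 13283 genes. Positions came from GENCODE M21, which held 23940 of the genes tested, and copies from blastn 2.17.0. Named genes were the members, the RT-qPCR targets, the 3 nearest patterns and the extremes of each list at a mean of at least 1 CPM, of which 1 is not reported here. Actg1, Actc1, Sfn, Trf, Ireb2 and the single cell-type or tissue markers were outside this rule and were chosen after their values were seen. Members and lists were chosen with earlier results of these data known. Scripts were tested on simulated counts. Depth was 42297150 to 93557948 counts, and floors cover counting error only.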

Additional observations from a re-analysis of the deposited data

How the results depend on the processing

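With edgeR's quasi-likelihood test, 0 of 8 reference genes had an adjusted p-value under 0.05. The count was 1 (Actb) with DESeq2, with no filter beyond 1 count and with total counts as library sizes, in fits that called 21.3%, 11.0% and 9.40% of all genes. Leaving out single mice gave 0 to 4, the 4 being Hprt, Actb, Tbp and Tfrc without Bahd1-KO replicate 1. Of the genes in the lists around the members, 38 were called with DESeq2, 33 with no filter, 20 with total counts and 0 to 60 when single mice were left out (60 without Bahd1-KO replicate 1, where 30.0% of all genes were called), against 0. Upper-quartile factors moved all genes by a median of -0.14 on the log2 scale and called 0 members and 0 genes of the lists. They gave -0.88 for Tfrc, -0.63 for Tbp, -0.56 for Hprt, -0.23 for Ywhaz, 0.015 for Polr2a, 0.16 for Gusb, 0.18 for Ppia and 0.58 for Actb, so that no member changed sign. The replicate numbers were not taken to pair the mice, which are different animals. Deviations from the genotype means correlated at -0.656 to -0.144 between same-numbered mice and at -0.0932 to 0.629 between the others. With 3 mice per genotype these correlations cannot decide whether the numbers pair mice. The replicate block called 0 of 8 members and 0 genes of the lists, as without it, and 7 genes in all, against 2. The offset turned the sign of Ywhaz to 0.15, Tbp to 0.042, Gusb to -0.022 and Polr2a to -0.13, and with the block also to 0.15, 0.038, -0.021 and -0.14; the cause was not tested. The members' median SD was 0.293, and 0.255 to 0.322 without the offset when single mice were left out, against 0.137 with the offset and all mice. Of the pairs, 14 did not overlap, where 49.3% of all pairs of expressed genes did not, and 7 with the offset, where 33.5% did not. When single mice were left out without the offset, 14 to 21 did not overlap. The share over all pairs was not computed there, and fewer mice overlap less readily, so that range cannot be read as a change. The targets' median difference, -1.73 over Ywhaz, was -2.55 over Actb and -1.01 over Tfrc, and -2.01 to -1.56 when single mice were left out. Depth limits Lyz1 and Sftpa1, which are given as bounds.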
